A study of Homo sapiens with 3 samples.

Results

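The HOX clusters carry, between and inside their homeobox genes, a small set of microRNA (miRNA) genes: those of miR-10, miR-196 and miR-615. Their products were followed here in 3 small RNA libraries of Flp-In T-REx 293 cells, which descend from HEK293, an immortalised line of human embryonic kidney origin. The members were fixed by genome position and name, as all mature products of 6 hairpins: hsa-mir-10a, hsa-mir-10b, hsa-mir-196a-1, hsa-mir-196a-2, hsa-mir-196b and hsa-mir-615. Both arms were taken and hairpins with the same mature product were summed, which gave 10 of the 2580 endogenous mature miRNAs listed. The libraries came from lines transduced with an empty lentiviral vector (control), a vector with a synthetic miR-1 hairpin or a vector with a synthetic miR-122 hairpin, with 1 library each. Each line was a transduced and selected cell population. The hairpin sat in an intron of a GFP cassette under a doxycycline-inducible CMV promoter. All lines, the control included, were selected with Geneticin at 1 mg/mL for 6 days, after which its concentration was lowered. They were given doxycycline at 1 µg/mL for 7 days. In bulk libraries such as these, fewer cells that make a miRNA and less of it per cell cannot be told apart.

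Endogenous counts were 1636481 in the control, 1791702 in the miR-1 and 1947669 in the miR-122 library, and the synthetic hairpins took a further 0.0216%, 38.1% and 24.4% of each total. The induced miRNAs matched the labels, with 1100840 counts of miR-1-3p in the miR-1 library against 166 in the control and 627576 counts of miR-122-5p in the miR-122 library against 10. Levels are therefore given as counts per 1000000 endogenous counts (CPM), so that the induced miRNAs do not enter the denominator. No difference between lines has a replicate check, and no test between conditions was possible. All intervals are 95% intervals for counting error alone, which here means that of reads. Since amplified reads are not independent molecules, the counting error of molecules may be larger than these intervals show.

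HOX genes encode transcription factors that set positional identity along the body axis, and they lie in clusters in which gene order follows the order of expression. The embedded miRNAs are conserved in position as well as sequence. A miRNA is cut from a hairpin as a duplex of a 5p and a 3p strand, of which one, the guide, is usually kept by Argonaute while the other, the passenger, is lost. The guide finds targets mainly through its seed, bases 2 to 8. miR-196 is known for cutting the HOXB8 mRNA through near-complete pairing, and miR-10 for repressing HOX genes of its own neighbourhood. Here the more abundant strand of each pair is called the guide.

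The hairpins were located by matching them to GRCh37. There hsa-mir-10a was at chr17:46657200-46657309 on the minus strand, 1488 bp from HOXB4 and in an intron of HOXB3. It also overlapped an exon of an unnamed gene. On the same strand, hsa-mir-196a-1 was at chr17:46709852-46709921, 6132 bp from HOXB9 and in an intron of HOXB7. The distance between these HOXB hairpins was 52.5 kb. In the HOXC cluster, hsa-mir-196a-2 was at chr12:54385522-54385631, 1459 bp from HOXC10 and in an intron of HOXC6. hsa-mir-615 was at chr12:54427734-54427829, in an intron of both HOXC5 and HOXC4, 42.1 kb from hsa-mir-196a-2. Both HOXC hairpins were on the plus strand. In the HOXD cluster, hsa-mir-10b was at chr2:177015031-177015140 on the plus strand, 1138 bp from HOXD4 and in an intron of HOXD3. In the HOXA cluster, hsa-mir-196b was at chr7:27209099-27209182 on the minus strand, 1042 bp from HOXA10, and overlapped an annotated exon of HOXA9. It also overlapped an exon of HOXA10-AS, which is transcribed from the other strand.

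RefSeq (GRCh38.p14) gave mature sequences for 9 of the 10 members, all but miR-10b-5p. The guides carry the seeds by which targets are found, and the passenger strands are shown because their counts set the arm ratios described below. Sequences are written 5′ to 3′ with the seed in capitals.
miR-10a-5p: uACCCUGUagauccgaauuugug
miR-196a-5p: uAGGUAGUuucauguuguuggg
miR-196b-5p: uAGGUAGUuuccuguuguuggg
miR-615-3p: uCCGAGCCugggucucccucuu
miR-10a-3p: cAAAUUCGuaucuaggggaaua
miR-10b-3p: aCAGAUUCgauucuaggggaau
miR-196a-3p: cGGCAACAagaaacugccugag
miR-196b-3p: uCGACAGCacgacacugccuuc

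The miR-196 guides shared their seed and differed by 1 base, A12C from miR-196a-5p to miR-196b-5p, counted from the 5′ end. No other listed miRNA whose sequence is in the RefSeq table had that seed. The passenger strands of miR-10a and miR-10b had different seeds, as did those of miR-196a and miR-196b. Related guides of other loci carry part of these sequences at another offset.
let-7a-5p: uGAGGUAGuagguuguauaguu
miR-99a-5p: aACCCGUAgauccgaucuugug
miR-100-5p: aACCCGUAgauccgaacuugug
The miR-196 seed AGGUAGU occurred in let-7a-5p from base 3, that is 1 base further in. miR-10a-5p and miR-100-5p shared a run of 11 bases, from base 7 of the former and base 6 of the latter, but not a seed.

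HOX-cluster miRNAs took a large part of the endogenous pool, and nearly all of it was miR-10. Together the members held 18.2% of endogenous counts in the control (Wilson interval 18.1% to 18.3%), 19.4% in the miR-1 library (19.3% to 19.4%) and 20.1% in the miR-122 library (20.1% to 20.2%). The miR-10 guides alone held 16.6%, 17.8% and 18.7%, in the same order. The miR-196 guides held 0.956%, 1.03% and 0.918%, and miR-615 held 0.448%, 0.379% and 0.371%. Without miR-10a-5p the members came to 5.33%, 5.67% and 5.36%. Small RNA ligation favours some sequences over others and was not calibrated here, so that levels of different miRNAs compare reads and not molecules.

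miR-10a-5p, from the HOXB cluster, had 210754 counts in the control, 245299 in the miR-1 and 287733 in the miR-122 library, or 128785, 136908 and 147732 CPM. It ranked 1 among endogenous miRNAs in all 3. miR-10b-5p, from the HOXD cluster, had 61639, 73959 and 77015 counts (37666, 41279 and 39542 CPM) and ranked 6, 5 and 5. Both miR-10 guides thus stood among the leading miRNAs of each library, and the lowest level of each was that of the control on this scale, but the highest was when the synthetic hairpins entered the total.

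The miR-196 guides and miR-615-3p came next. miR-196a-5p, which the HOXB and HOXC clusters both encode, had 8969, 11781 and 10818 counts, in the same order of libraries (5481, 6575 and 5554 CPM), with ranks of 34, 33 and 34. miR-196b-5p, from the HOXA cluster, had 6671, 6654 and 7064 counts (4076, 3714 and 3627 CPM), with ranks of 40, 41 and 43. miR-615-3p, from the intron of HOXC5, had 7327, 6781 and 7224 counts (4477, 3785 and 3709 CPM), with ranks of 38, 40 and 42. For miR-196a-5p the miR-1 library was the highest on this scale (the control was, with the synthetic hairpins in the total), whereas for miR-196b-5p and miR-615-3p it was the control on both.

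The passenger strands differed widely among themselves. miR-10a-3p was the most abundant, with 2109, 2060 and 2033 counts (1289, 1150 and 1044 CPM), and ranked 74 in the control. miR-10b-3p had 337, 304 and 245 counts (206, 170 and 126 CPM), and miR-196a-3p had 118, 103 and 44 (72.1, 57.5 and 22.6 CPM). miR-196b-3p had 29, 25 and 24 counts, and miR-615-5p had 2, 5 and 0. A count of 0 in the miR-122 library allowed up to 1.54 CPM for miR-615-5p. For the other 4 passenger strands the control had the highest CPM and the miR-122 library the lowest, although for miR-10a-3p and miR-196b-3p the lowest was the miR-1 library when the synthetic hairpins entered the total.

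**Figure D1:**
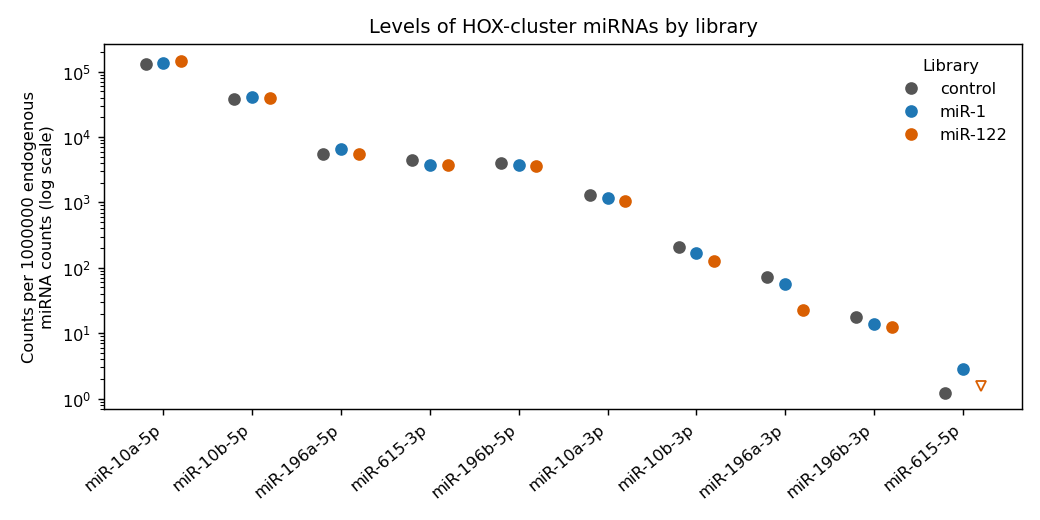
Counts per 1000000 endogenous miRNA counts (log axis) of the 10 mature HOX-cluster miRNAs, 1 point per library. The open triangle marks a count of 0, drawn at the 3-count limit of 1.54 CPM; miR-10a-5p lies between 128785 and 147732 CPM, and the passenger strands of miR-10a, miR-10b, miR-196a and miR-196b are lowest in the miR-122 library on this scale (for miR-10a and miR-196b, in the miR-1 library with the synthetic hairpins in the total).

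The order of the members by level was miR-10a-5p, miR-10b-5p, miR-196a-5p, miR-615-3p, miR-196b-5p, miR-10a-3p, miR-10b-3p, miR-196a-3p, miR-196b-3p and miR-615-5p in all 3 libraries. Neighbours in this order were separated beyond counting error with 1 exception. miR-615-3p exceeded miR-196b-5p 1.10-fold in the control (exact interval 1.06 to 1.14). Their ratio was 1.02 in the miR-1 library (0.985 to 1.05) and 1.02 in the miR-122 library (0.990 to 1.06), where the intervals included equality.

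Since a ratio inside a library does not depend on how libraries are scaled, the paralogous guides were compared with each other. miR-10a-5p had 3.42 times the counts of miR-10b-5p in the control (exact interval 3.39 to 3.45), 3.32 times in the miR-1 library (3.29 to 3.34) and 3.74 times in the miR-122 library (3.71 to 3.77). These differences were beyond counting error but small: the ratio was 1.09-fold that of the control in the miR-122 library (1.08 to 1.11) and 0.970-fold in the miR-1 library (0.958 to 0.982).

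The balance of the miR-196 guides differed more. miR-196a-5p had 1.34 times the counts of miR-196b-5p in the control (1.30 to 1.39), 1.77 times in the miR-1 library (1.72 to 1.82) and 1.53 times in the miR-122 library (1.49 to 1.58). miR-196a-5p was accordingly 57.3%, 63.9% and 60.5% of the summed counts of the pair, which were 15640, 18435 and 17882. Relative to the control, the ratio stood at 1.32-fold in the miR-1 library (Woolf interval 1.26 to 1.38) and 1.14-fold in the miR-122 library (1.09 to 1.19). Against its HOXC neighbour miR-615-3p, miR-196a-5p stood 1.42-fold higher in the miR-1 library than in the control (1.36 to 1.48) and 1.22-fold higher in the miR-122 library (1.17 to 1.28). The spread of such ratios between cultures of one line is unknown here, so that only the libraries are compared.

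**Figure D2:**
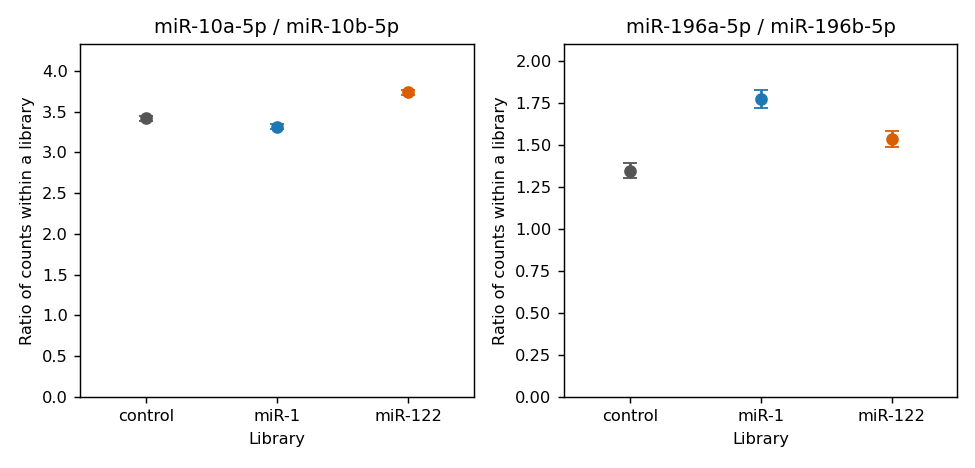
Counts of miR-10a-5p per count of miR-10b-5p (left) and of miR-196a-5p per count of miR-196b-5p (right) in each library, with exact 95% intervals for counting error. The miR-10 ratio runs from 3.32 to 3.74 and is highest in the miR-122 library; the miR-196 ratio runs from 1.34 to 1.77 and is highest in the miR-1 library.

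miR-196a-5p could not be divided between its HOXB and HOXC genes, because its mature sequence is the same in both and reads that match both hairpins had been shared out among them. The row of hsa-mir-196a-2 nevertheless held more than that of hsa-mir-196a-1 in each library. The counts were 5140 against 3829 in the control, 6750.5 against 5030.5 in the miR-1 library and 6301.5 against 4516.5 in the miR-122 library. The excess was 14.6%, 14.6% and 16.5% of the summed count. If shared reads were divided equally, this excess is the surplus of reads that matched only hsa-mir-196a-2; reads that fit both cannot be assigned.

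The libraries were then compared after scaling by TMM on the 514 endogenous miRNAs whose count averaged 10 or more over the libraries. Of the members 9 passed, and miR-615-5p did not. A difference of 1.5-fold was used as the limit. No member was past it between the miR-1 and control libraries, where 16.7% of the 514 miRNAs were. Between miR-122 and control 2 of 9 were past it, against 27.0% of all miRNAs, and between miR-1 and miR-122 1 of 9 was, against 23.2%. The median log2 ratio of the 9 members was -0.13, -0.18 and 0.08 in the same order, and that of all 514 was -0.00212, -0.04 and 0.01.

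All 5 guides were within 1.5-fold in every comparison with TMM scaling, but not with scaling to the total that includes the induced miRNAs, under which miR-10a-5p (log2 -0.60), miR-196b-5p (-0.83) and miR-615-3p (-0.93) were past it in miR-1 to control and miR-615-3p (-0.68) in miR-122 to control. In the miR-1 library relative to the control, miR-196a-5p had the highest log2 ratio of the members, 0.30 (interval 0.26 to 0.34), or 1.23-fold. miR-10a-5p and miR-10b-5p followed at 0.13 (0.12 to 0.13) and 0.17 (0.15 to 0.19). Those of miR-196b-5p and miR-615-3p were negative, at -0.10 (-0.15 to -0.05) and -0.20 (-0.25 to -0.16). In the miR-122 library relative to the same control, the values were 0.29 for miR-10a-5p (0.28 to 0.30), 0.16 for miR-10b-5p (0.15 to 0.18) and 0.11 for miR-196a-5p (0.07 to 0.15). They were -0.08 for miR-196b-5p (-0.12 to -0.03) and -0.18 for miR-615-3p (-0.23 to -0.13). With that other scaling, all 9 members were below 0 in both comparisons, as the median of all miRNAs moved to -0.73 and -0.53. A change of scaling moves all ratios of a comparison by the same amount. The 3 members above that median, miR-10a-5p, miR-10b-5p and miR-196a-5p, were therefore the same by construction. Among the 108 endogenous miRNAs whose count averaged 1000 or more, which include the 5 guides, 0.926% were past 1.5-fold between miR-1 and control, 13.0% were when miR-122 was set against control, and 9.26% were for miR-1 against miR-122.

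The guides were also compared between the induced lines. The log2 ratio of miR-1 to miR-122 was 0.00743 for miR-10b-5p (-0.00715 to 0.02), -0.02 for miR-196b-5p (-0.07 to 0.03) and -0.03 for miR-615-3p (-0.07 to 0.02). The intervals of these 3 included equality. It was -0.16 for miR-10a-5p (-0.17 to -0.16) and 0.19 for miR-196a-5p (0.15 to 0.23). The signs of miR-10b-5p, miR-196b-5p, miR-615-3p and miR-196a-5p in this comparison each turned under at least 1 other scaling.

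The members past the limit were passenger strands. miR-196a-3p was 2.97-fold lower in the miR-122 library than in the control, a log2 ratio of -1.57 (interval -2.12 to -1.07), and 96.7% of all 514 miRNAs had a smaller absolute ratio. It was 2.43-fold higher with miR-1 than with miR-122 (log2 1.28, 0.77 to 1.84). In miR-1 to control its log2 ratio was -0.29 (-0.68 to 0.10), an interval that included equality. miR-10b-3p was 1.53-fold lower in the miR-122 library than in the control (log2 -0.62, -0.86 to -0.38), with an interval that reached inside the limit. Its log2 ratio of miR-1 to control was -0.24 (-0.47 to -0.01). miR-10a-3p stood at -0.13 (-0.22 to -0.04) with miR-1 and at -0.21 (-0.30 to -0.12) with miR-122, relative to control. miR-196b-3p, with 24 to 29 counts, had intervals that included equality in every comparison. Of the 251 miRNAs with mean counts of 10 to 100, the range of miR-196a-3p and miR-196b-3p, 38.2% were past it in miR-122 to control.

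**Figure D3:**
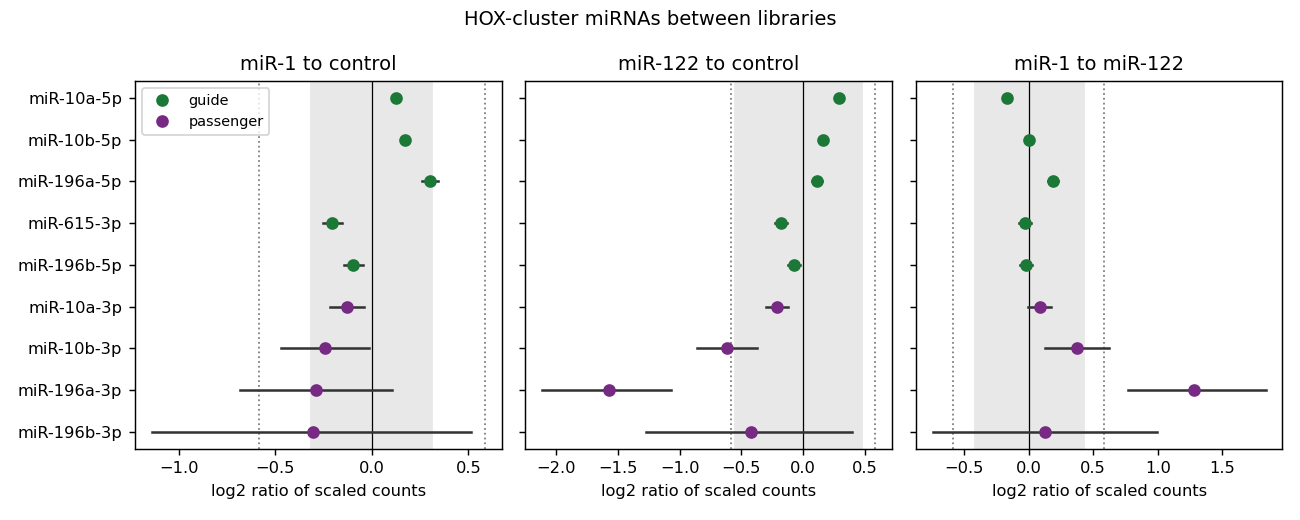
Log2 ratios of TMM-scaled counts for the 9 members that passed the count filter, with exact 95% intervals for counting error (horizontal lines), in each pair of libraries, each panel with its own horizontal scale. The grey band is the median of all 514 endogenous miRNAs plus and minus their spread (the scaled median absolute deviation) and the dotted lines mark 1.5-fold; guides lie between -0.20 and 0.30, and miR-196a-3p lies at -1.57 in miR-122 to control.

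The arms were next set against each other within each hairpin family. The 5p strand was the guide of miR-10a, miR-10b, miR-196a and miR-196b, and the 3p strand that of miR-615. In the control library the passenger strand made up 0.991% of both arms for miR-10a (Wilson interval 0.950% to 1.03%), 0.544% for miR-10b (0.489% to 0.605%), 1.30% for miR-196a (1.09% to 1.55%) and 0.433% for miR-196b (0.302% to 0.621%). For miR-615 it was 0.0273% (0.00748% to 0.0995%), or 2 counts against 7327. In each of the 5 families the guide thus took nearly all counts.

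The passenger share was lower in both induced lines for miR-10a, miR-10b and miR-196a. For miR-10a it was 0.833% in the miR-1 library (0.798% to 0.869%) and 0.702% in the miR-122 library (0.672% to 0.733%), and the 3 intervals did not overlap. For miR-10b it was 0.409% (0.366% to 0.458%) and 0.317% (0.280% to 0.359%), again without overlap. For miR-196a it was 0.867% (0.715% to 1.05%) and 0.405% (0.302% to 0.543%), so that guide counts per passenger count went from 76.0 in the control to 114 in the miR-1 and 246 in the miR-122 library. For miR-196b, at 0.374% (0.254% to 0.552%) and 0.339% (0.228% to 0.503%), all 3 intervals overlapped. A lower share was not particular to these families. Among 123 endogenous arm pairs, set out below, the minor-to-major ratio was lower than in the control in 48.0% with miR-1. With miR-122 it was lower in 58.5%. How many of those pairs were lower in both lines, or had intervals without overlap, was not counted. The miR-196a 3p strand listed here comes from hsa-mir-196a-2 alone, while the 5p strand sums both hairpins. Against the row of hsa-mir-196a-2 only, its share was 2.24% in the control, 1.503% with miR-1 and 0.693% with miR-122.

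**Figure D4:**
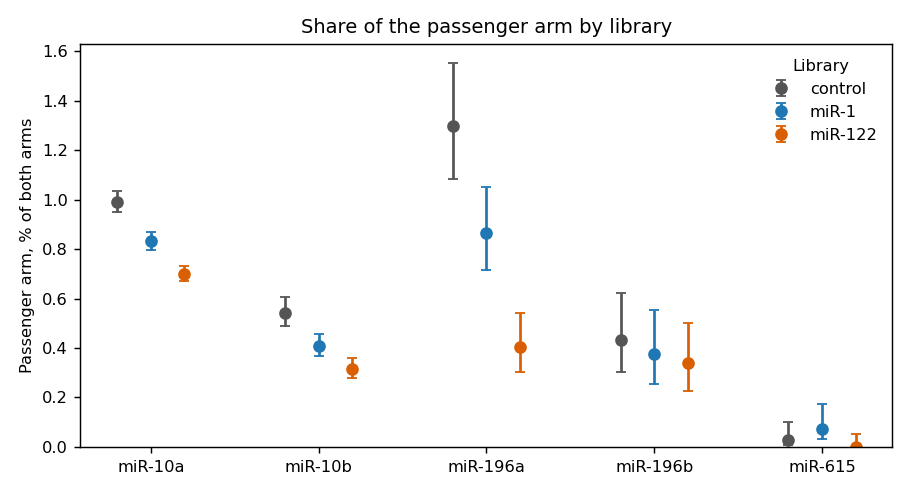
Passenger strand as a percentage of both arms for each hairpin family in the 3 libraries, with 95% Wilson intervals for counting error. For miR-10a, miR-10b and miR-196a the share is highest in the control and lowest in the miR-122 library; for miR-196b the intervals overlap, and for miR-615 the shares rest on 0 to 5 counts.

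The shift of the arm ratio (passenger to guide) is independent of scaling between libraries, and was set beside that of the 123 endogenous pairs in which both arms averaged 10 counts or more. This filter on counts leaves out pairs with a rare arm, miR-615 among them. Between miR-122 and control, the log2 shift was -0.50 for miR-10a (Woolf interval -0.59 to -0.41), -0.78 for miR-10b (-1.02 to -0.54), -1.68 for miR-196a (-2.18 to -1.18) and -0.35 for miR-196b (-1.12 to 0.42). The shift of miR-196a was the lowest of all 123 pairs, and the next lowest was that of miR-597, at -1.49. That value lay inside the interval of miR-196a, which rested on 44 passenger counts in the miR-122 library, so the rank is not resolved. The miR-196a ratio also sets a 3p strand of hsa-mir-196a-2 alone against a 5p strand summed over both hairpins. Of the 4 member pairs 2 were past 1.5-fold, beside 39.8% of all pairs, so that the count was near the background. All 4 shifts were below 0, as were 58.5% of all pairs, and the interval of miR-196b included 0. The median over the 4 was -0.64 and that over all pairs -0.08. A shift lower than that of miR-10b was seen in 13.8% of the pairs, and one lower than that of miR-10a in 29.3%.

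Between miR-1 and control, the log2 shift was -0.25 for miR-10a (-0.34 to -0.16), -0.41 for miR-10b (-0.64 to -0.19), -0.59 for miR-196a (-0.97 to -0.21) and -0.21 for miR-196b (-0.97 to 0.56). Here 1 of 4 was past 1.5-fold, beside 19.5% of all pairs. The median was -0.33 for the 4 and 0.02 for all pairs, of which 48.0% were below 0. The same control library enters both comparisons, so these values do not stand as separate evidence. Between miR-1 and miR-122 the shifts were 0.25 for miR-10a (0.16 to 0.34), 0.37 for miR-10b (0.13 to 0.61), 1.09 for miR-196a (0.59 to 1.603) and 0.14 for miR-196b (-0.66 to 0.95). These values follow from the shifts to control by subtraction and add no separate evidence. Again 1 of 4 was past 1.5-fold, beside 30.1% of all pairs, whose median was 0.07.

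**Figure D5:**
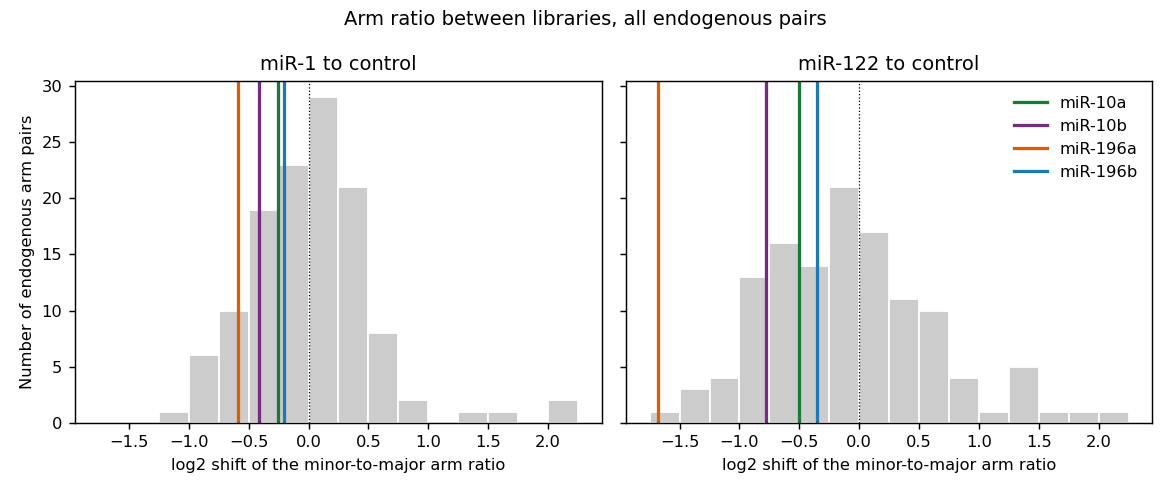
Number of endogenous arm pairs (123 in each panel) by the log2 shift of their minor-to-major arm ratio from the control to the miR-1 library (left) or the miR-122 library (right), in bins of 0.25. Vertical lines mark the 4 HOX-cluster pairs, all below 0, with miR-196a at -0.59 and at -1.68.

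Guides with related sequence were set beside the members. In the list of miR-99, miR-100 and miR-125 guides, which are grouped with miR-10 by descent, 1 of 5 was past 1.5-fold in miR-122 to control, beside 27.0% of all 514 miRNAs: miR-99a-5p, with 15622 counts in the control, 15942 with miR-1 and 27657 with miR-122, and a log2 ratio of 0.67. The median log2 ratio of the 5 was 0.28 in that comparison, with a range of 0.12 to 0.67. Between miR-1 and control 0 of the 5 were past the limit, beside 16.7% of all, and their median was -0.00432. Between miR-1 and miR-122 1 of 5 was past it, again miR-99a-5p, beside 23.2%, and the median was -0.24. The miR-10 guides had 7.44, 7.74 and 6.76 times the summed counts of this list, in the same order. Of the 9 let-7 and miR-98 guides, 0 were past 1.5-fold in any comparison, beside the same background shares, and their median log2 ratio was -0.20 with miR-1 and -0.17 with miR-122, both relative to control. They had 5.25, 4.56 and 5.51 times the summed counts of the miR-196 guides.

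For each guide, the 3 most similar of the 107 other endogenous miRNAs whose count averaged 1000 or more were found by Euclidean distance between the pairs of log2 ratios to control. With 3 libraries this describes closeness of 2 numbers and no more. miR-10a-5p lay nearest to miR-182-5p (distance 0.02, log2 ratios of 0.13 in miR-1 and 0.27 in miR-122), miR-221-3p and miR-25-3p. miR-10b-5p lay nearest to miR-148a-5p, miR-24-3p and miR-629-5p, at distances of 0.00908 to 0.03. For miR-196a-5p these were miR-191-5p (distance 0.03), miR-99b-5p and miR-30a-3p, the last at 0.12. miR-196b-5p lay nearest to miR-30c-5p, miR-7-5p and miR-197-3p, at 0.04 to 0.05, and miR-615-3p to miR-181b-5p, let-7g-5p and miR-484, at 0.04 to 0.07. No guide had another HOX-cluster guide among its 3 nearest, but few of the 107 candidates were such guides.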

How the data were processed

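Small RNA libraries were made from 1000 ng total RNA per line. Per the methods, the authors removed adapters, collapsed identical reads and aligned them with miRDeep2 to human miRBase hairpins, to which their synthetic hairpins had been added. The values deposited by the authors were estimated counts, 1 row for each pair of mature miRNA and hairpin, with reads that match several hairpins shared among them. RPM values deposited by the authors differed from counts scaled to 1000000 per library total by at most 0.00530 RPM for the members. The submitters' processing notes name hg19 (GRCh37). A deposited column of totals was not used.

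Counts were summed over hairpins, and synthetic hairpins were left out. Scaling was by TMM (edgeR 4.0.16, R 4.3.3) on endogenous miRNAs whose count averaged 10 or more. Log2 ratios used a pseudocount of 0.5 counts. Counts were rounded to whole numbers for intervals: exact (Clopper-Pearson) for ratios, Wilson for shares and Woolf for changes of a ratio. With 1 library per group no test was made. A miRNA was called past the limit at 1.5-fold. For a count of 0, 3 counts were taken as the upper limit. No molecular identifiers are described. The calculation was checked on simulated data.

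The miRNAs named were all products of the 6 hairpins, the induced miRNAs, a list of guides related by sequence or descent, and the 3 nearest miRNAs of each guide. The lowest arm shifts were named after their values were seen. Members and lists were chosen with earlier results of these data known. Hairpin positions came from an exact match of RefSeq hairpins to GRCh37, with genes from GENCODE. Alternatives covered scaling (including DESeq2 1.42.0 size factors), count filter, pseudocount, fold limit, hairpin summing, arms and denominator.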

Additional observations from a re-analysis of the deposited data

How the results depend on the processing

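No paired analysis was possible because every condition had a single library. For counts of members past 1.5-fold, scaling to the total with the induced miRNAs gave 7 for miR-1 over control and 5 for miR-122 over control, all lower than control, beside 69.3% and 49.4% of all miRNAs, because the induced miRNAs enlarge that total. Without a filter the counts were 1 for miR-1 over control and 2 for miR-1 over miR-122, as miR-615-5p (5 counts or fewer) entered, beside 44.9% and 49.7%. A mean count of at least 100, which leaves out miR-196a-3p and miR-196b-3p, gave 1 for miR-122 over control and 0 for miR-1 over miR-122, beside 17.1% and 12.9%, and a limit of 2-fold gave 1 for miR-122 over control, beside 9.73%. With the highest hairpin row in place of the sum, which divides miR-196a-5p by construction, the ratio of miR-196a-5p to miR-196b-5p was 0.770 in the control, 1.01 with miR-1 and 0.892 with miR-122, and the miR-196a passenger share, in that order, 2.24%, 1.503% and 0.693%. The HOX-cluster share was 5.33%, 5.67% and 5.36% without miR-10a-5p, and 12.0% (miR-1) and 15.2% (miR-122) with the synthetic hairpins in the denominator. Of 54 alternatives for these values 36 stayed within the limits set, and of 156 for log2 ratios of single members 112 did. The 36 include results fixed in advance, since taking the highest hairpin row cannot move a family with a single hairpin. These tallies therefore do not measure robustness. No alternative turned the sign of miR-196a-3p or miR-10b-3p in a comparison where these were past 1.5-fold with TMM scaling. Depth limits miR-615-5p and miR-196b-3p, whose differences between libraries were not detectable at these counts.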
